A study of Drosophila melanogaster with 4 samples.

Results

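The genes described here are the methylation guide snoRNA genes of Drosophila melanogaster, taken as every gene of the deposited count table whose identifier begins with snoRNA:Me. There were 98 such genes among the 16727 of the table, and all 98 were followed in all 4 libraries. Each symbol states the RNA, the base and the position that the guide is assigned to, and a trailing lower-case letter separates copies with the same target. By that name, 30 guides were assigned to 18S rRNA, 64 to 28S rRNA, 1 to 5.8S rRNA, 1 to U2 snRNA and 2 to U6 snRNA.

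The study profiled total RNA of whole embryos aged 16 to 18 h with 2 libraries of deltaHisC; 12xH3.2-WT embryos (H3.2-WT, the controls) and 2 of deltaHisC; 12xH3.2-K4R embryos (H3.2-K4R, the mutants). Both groups lacked the endogenous histone gene complex (deltaHisC) and carried in its place a 12-copy histone transgene, which in the mutants encoded arginine in place of lysine 4 of histone H3.2. Egg collections of 2 h at 25 °C were aged for 16 h, embryos without the endogenous complex were picked by a GFP marker, and about 0.25 µg of RNA per library went through a kit that depletes Drosophila rRNA. By its title, the study asks about the role of this lysine in opposing Polycomb group repression and in the expression of target genes. Whether replicates are separate egg collections is not given by the labels, and p-values therefore measure the spread between libraries, possibly technical.

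Box C/D snoRNAs are short nucleolar RNAs that base pair with a ribosomal or spliceosomal RNA and place the methyltransferase fibrillarin, encoded by Fib, on the ribose of a chosen nucleotide. In flies most of them are cut out of introns, of ribosomal protein genes, of other protein-coding genes, or of Uhg genes (U snoRNA host genes), whose spliced RNA is not known to encode a protein. A second class, the box H/ACA guides, directs pseudouridine formation and appears in the table under the prefix snoRNA:Psi; these guides serve as the nearest comparison.

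The libraries held between 33882742 and 45509930 counted read pairs. For a guide whose pairs could be counted, a count of 0 therefore allowed a level in the library of at most 0.0647 to 0.0880 CPM. CPM is the usual unit of counts scaled to library size, here with TMM factors. This bound is the value of 3 counts and covers counting error only. It sets no limit for guides whose pairs also fall on another gene or map to several places, since those were left uncounted. Nor does it limit the level in the embryo, since how well the libraries recovered RNAs this short was not measured. The replaced residue leaves no trace in counts per gene, so no targeted gene could check the labels. All 9 late embryo marker genes were detected, at 19.3 to 9370 CPM, whereas 9 early embryo and maternal marker genes lay between 0 and 34.1 CPM, with zen at 0 in every library. Replicates differed by more than sampling noise. The chi-square divided by its degrees of freedom was 56.6 in controls and 98.1 in mutants over well-counted genes kept by edgeR's expression filter. For the guides alone it was 9.09 over 34 guides in controls and 12.2 over 24 guides in mutants. The guide values used another count threshold and library scaling, and the measure depends on count level, so they are not compared with the former.

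Most methylation guides gave few or no counts. Of the 98 genes, 38 had 0 counts in every library, 27 reached 1 to 9 counts in their highest library, and 33 reached 10 or more. Only 8 genes reached 50 counts in any library, 12 were counted in all 4 libraries, and 9 had 10 or more counts in all 4. The expression filter of edgeR kept 19 guides, 19.4% of them, against 69.1% of all genes of the table. All numbers here are counts of read pairs: a pair lying over a guide on its strand is counted to the guide whether it came from the mature RNA or from an unspliced host transcript, and those sources cannot be told apart.

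The H/ACA guides of the same libraries had higher counts. Of 109 snoRNA:Psi genes, 79 were kept (72.5%) and 10 were at 0 in every library. They summed to 55744 and 54821 counts in the controls and to 46532 and 16813 in the mutants. The 98 methylation guides summed to 1397 and 1848 counts in controls and to 1444 and 1606 in mutants. In CPM the methylation guides summed to 41.0 and 39.8 in controls and to 33.9 and 44.4 in mutants, and the groups overlapped. That overlap depended on 1 guide, Me28S-A1322. Without it the sums were 19.4 and 20.2 CPM in controls and 15.5 and 17.0 in mutants. Both mutants then lay below both controls, as in 27.5% of all tested genes. Methylation guides were also shorter in the annotation, with a median of 81 bases and a range of 46 to 150, against a median of 140 bases for the H/ACA guides. Among 325 other table genes of the same length range, leaving out both guide classes, 48 were kept (14.8%) and 199 were at 0.

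**Figure D1:**
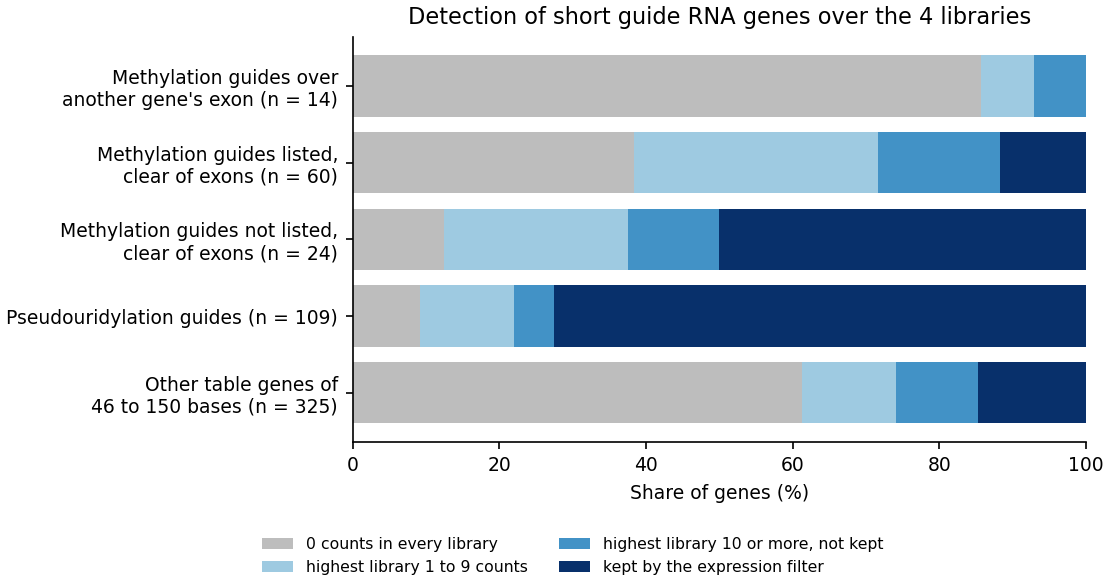
Share of genes (%, horizontal axis) in 4 detection classes over the 4 libraries, for the methylation guides by their position in the annotation, for the pseudouridylation guides and for the genes of 46 to 150 bases that belong to neither guide class; n is the number of genes. The guides that share bases with another gene's exon are mostly at 0 (12 of 14), and the pseudouridylation guides are mostly kept by the filter (79 of 109).

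Position in the annotation separated the guides into 3 sets. In 97 of 98 cases the guide lay inside a longer gene on the same strand, its host; the exception was Me18S-A1806. There were 56 different hosts, and 83 guides lay within a host and clear of any exon on their strand. The guides of 1 host lay close together: over 40 pairs of neighbours, the median gap was 168.5 bases, with a range of 112 to 3703 bases.

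The first set consists of 14 guides that share bases with an exon of another gene on their strand, 12 of them over their whole length. The counting options left pairs that fall on several genes uncounted, and 12 of these 14 guides were at 0 in every library. None was kept, and together they had 19 counts. All copies assigned to 28S-G1083 belong here, inside Nop60B, the gene of the pseudouridine synthase of H/ACA particles, and so do all copies assigned to 28S-C2645, inside Uhg3. The copies Me28S-C2645b and Me28S-C2645c are given the same 2 spans in the table, so they compete with each other as well as with the host. The set also holds Me5.8S-G74, the only guide assigned to 5.8S rRNA, which lies in an exon of the noncoding RNA CR45184 and had 0 counts in every library. Me28S-G980, of which 45.1% of the length is shared with snoRNA:M, had most of those 19 counts, with 12 and 5 in the controls and 0 in both mutants. Me18S-A1806, Me5.8S-G74 and Me28S-G980 were named after their values were seen.

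The 84 guides clear of exons fall into 60 that overlap a snoRNA entry of the Ensembl annotation used here and 24 that overlap none. Of the 60 listed guides, 7 were kept and 23 were at 0 in every library, with a median of 5.5 counts summed over the 4 libraries. Of the 24 unlisted guides, 12 were kept and 3 were at 0, with a median of 34 summed counts. The unlisted guides were annotated longer, at a median of 104.5 bases against 79 for the listed ones. Together with 2 unlisted guides over exons, the 26 entries without such an entry held 51.8% of all methylation guide counts outside Me28S-A1322. Whether length, host or the basis of the annotation lies behind the higher counts of the unlisted guides was not tested.

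The share kept differed by annotated length. Among the guides clear of exons, the filter kept 4 of 37 under 80 bases, 7 of 27 from 80 bases, 7 of 16 from 100 bases and 1 of 4 from 120 bases up. Within the listed guides alone, none of which reached 120 bases, the numbers were 4 of 34, 2 of 21 and 1 of 5, and within the unlisted guides they were 0 of 3, 5 of 6, 6 of 11 and 1 of 4.

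**Figure D2:**
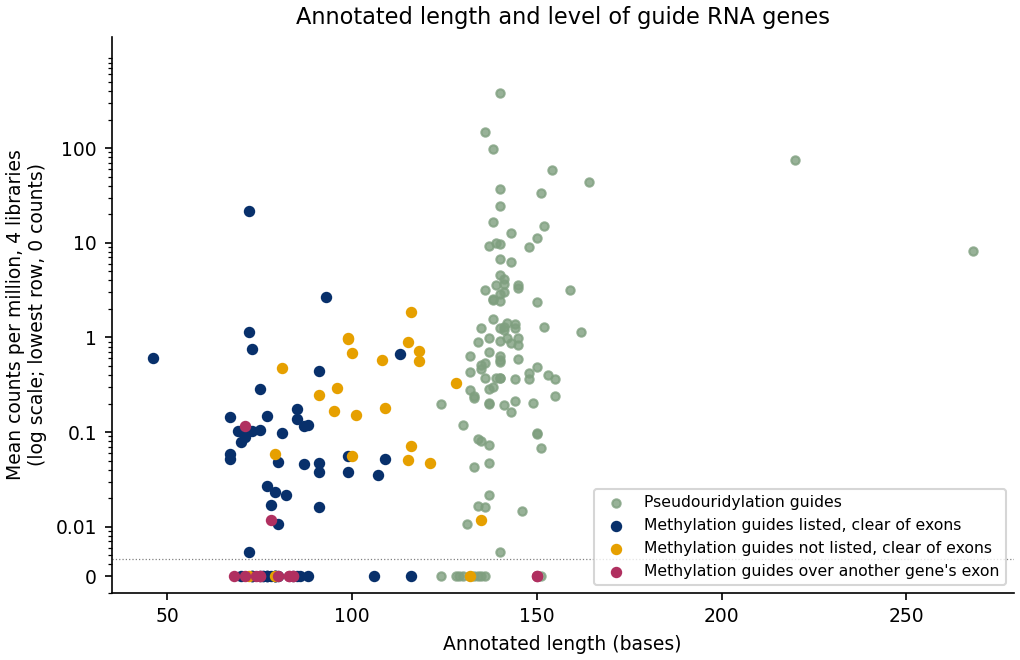
Mean CPM over the 4 libraries (vertical axis, log scale, with genes at 0 counts on the lowest row) against annotated length in bases for each guide gene. Methylation guides lie between 46 and 150 bases and, apart from Me28S-A1322, below 3 CPM; the pseudouridylation guides have a median of 140 bases and reach higher levels.

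The 12 highest guides, ranked by mean CPM per kilobase of annotated length, were led by Me28S-A1322. This 72-base guide (dm6 2R:11893123-11893194, plus strand) lies in an intron of Ef1alpha48D, the gene of translation elongation factor 1 alpha, now named eEF1alpha1. It had 737 and 911 counts in the controls and 783 and 990 in the mutants, or 21.6 and 19.6 against 18.4 and 27.4 CPM. Each of its 4 values lay far above those of any other guide in the same library, and its groups overlapped. It held 54.3% of the 6295 counts of all guides. On the length-scaled level it stood at 302 CPM per kilobase, 10.6 times the next guide. Without it, the summed level of the guides fell from a mean of 39.8 to 18.0 CPM. Its host was also the most abundant host, at 7538 CPM on average.

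Me28S-G2017, in an intron of RpL3 (dm6 3R:11224308-11224400, plus strand), ranked next at 28.5 CPM per kilobase. Its counts were 128 and 120 in controls and 98 and 71 in mutants, so that both mutants lay lower in CPM. Me28S-C437 (dm6 2L:4085890-4086005, plus strand) followed at 15.9 CPM per kilobase and lies in ed, the gene of the cell adhesion protein Echinoid. It had 48 and 94 counts in controls and 73 and 81 in mutants, with overlapping groups, and it overlaps no snoRNA entry of the annotation. Me18S-C1831, in an intron of RpL27A, came close behind it at 15.8 CPM per kilobase. It had 43 and 68 counts in controls and 40 and 32 in mutants. Between these 2 guides, the levels per kilobase differed by less than the spread over their libraries.

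The other guides among the 12 highest lay between 5.90 and 13.2 CPM per kilobase. Me28S-A2564 is the shortest guide of all at 46 bases and had 33 and 36 counts in controls but 29 and 0 in mutants. Me28S-A2113, inside RpL30, varied within both groups, with 4 and 55 counts in controls and 16 and 49 in mutants. The first of these was at 0 in a single mutant library, and the second was low in 1 replicate of each group. Me18S-A627 was steady at 36 and 46 against 32 and 41 counts. Me28S-U1554, inside the Toll receptor gene Tl, had 12 and 56 against 51 and 29 counts. Both have overlapping groups.

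Me18S-C1024 lies inside csw, which encodes the tyrosine phosphatase Corkscrew, and had 9 and 34 counts in controls and 55 and 57 in mutants. Me28S-C1237, inside CG5953, had 16 and 26 against 30 and 36 counts. Me18S-G393, inside CG13594, had 0 and 22 against 32 and 59 counts. In these 3 guides both mutants lay above both controls in CPM, and none of them overlaps a snoRNA entry of the annotation used here. Me18S-A1576, the only kept guide in a Uhg gene (Uhg2), went the other way, with 47 and 43 counts in controls and 0 and 13 in mutants. These 12 guides were the same when levels were not divided by length.

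**Figure D3:**
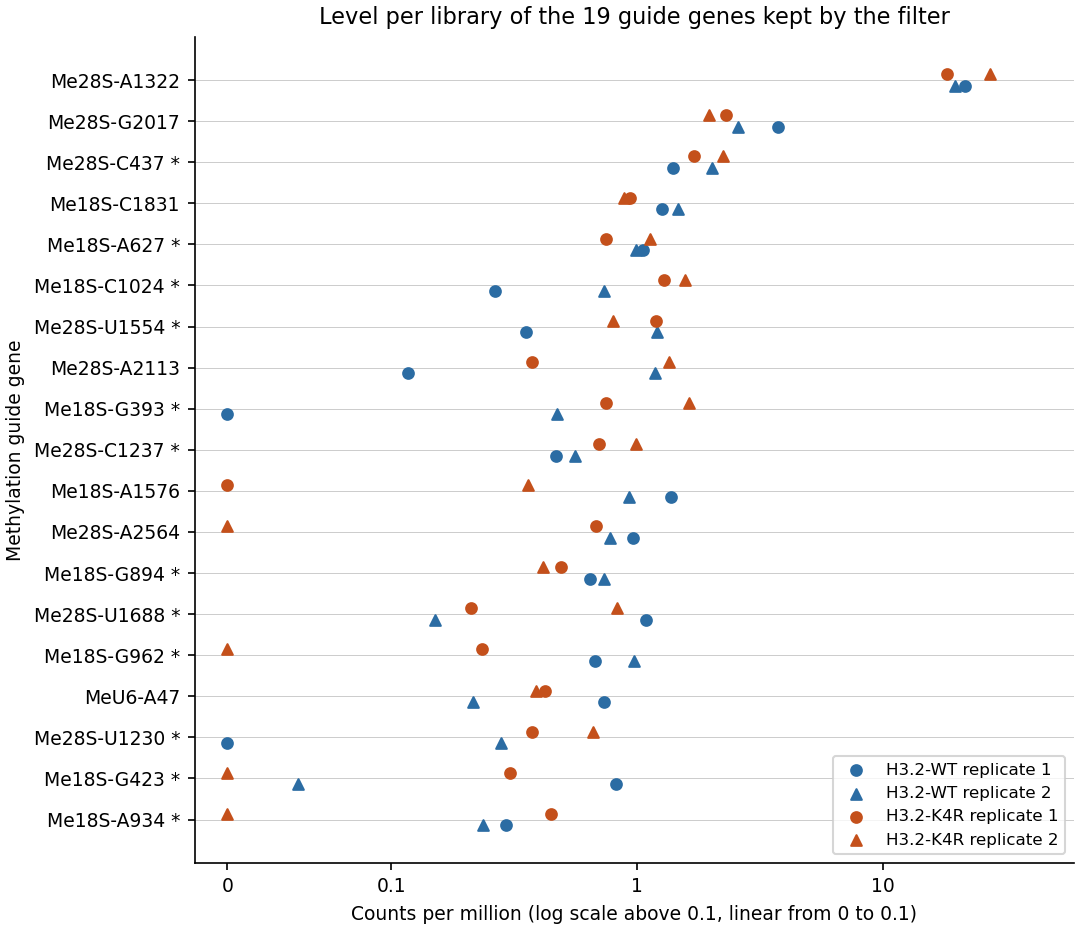
CPM of the 19 guides kept by the filter (horizontal axis, log scale above 0.1 and linear from 0 to 0.1) in each library; blue is H3.2-WT, orange is H3.2-K4R, circles are replicate 1, triangles are replicate 2, and an asterisk marks guides with no snoRNA entry in the Ensembl annotation. Me28S-A1322 lies between 18.4 and 27.4 CPM. Most values of the other guides lie below 1 CPM, and 7 guides have a 0 in at least 1 library.

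By target RNA, detection was as follows. Of the 18S guides, 12 of 30 were at 0 in every library and 9 were kept, and of the 28S guides, 25 of 64 were at 0 and 9 were kept. The remaining counts went to the snRNA guides. MeU6-A47, inside the helicase gene Ddx56, had 25 and 10 counts in controls and 18 and 14 in mutants. MeU6-C68 had 7 counts in 1 control and 0 elsewhere, and MeU2-A31 had 1 and 8 counts in controls and 0 in both mutants. The 3 snRNA guides were named after their values were seen.

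Several sites have more than 1 guide gene. The 98 guides are assigned to 75 targets, of which 59 have a single guide and 16 have copies: 10 targets with 2 copies, 5 with 3 and 1 with 4. The copies of any 1 target always lay in 1 host. The 39 copies held few counts: 22 of the 39 were at 0, none was kept, and all 39 together had 215 counts, whereas 16 of the 59 single guides were at 0 and 19 were kept. Pairs that map equally well to several places were not counted by the authors. No sequences were compared here, so whether the copies share too much sequence to be told apart was not tested.

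In 8 of the 16 targets with copies exactly 1 copy had any count, and in 4 targets all copies were at 0. For 28S-G2703, with all copies in Uhg5, copy a had 0, 7, 0 and 0 counts in control replicates 1 and 2 and mutant replicates 1 and 2. Copy b had 9, 4, 5 and 0 counts in the same order, and copy c had 0, 11, 0 and 17. The copies with counts thus differed between libraries, but counts this low cannot show which copies a library used. The copies summed to 9 and 22 counts in controls and 5 and 17 in mutants.

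The next targets showed single copies. Of 18S-G1358, inside drn, copy a was at 0 throughout and copy b had 5 and 43 counts in controls and 3 and 0 in mutants. Of 28S-U2134, inside RpL13A, copy a shares its whole length with an exon of the host and was at 0, and copy b had 2 and 8 against 0 and 13 counts. Of 28S-A774, inside RpS12, copy a had 0 and 8 against 10 and 0 counts and copy b was at 0. In none of these targets did both replicates of a group hold 10 counts.

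Among the targets with 3 copies, 28S-A2634 in Uhg7 was counted only through copy b, with 12 and 2 counts in the controls and 0 in the mutants. 28S-A2589, in the chromatin remodeller gene dom, had 7 counts of copy b in 1 control and 6 counts of copy c in 1 mutant library. 18S-U1356 in Uhg8 had 4 counts of copy a in 1 mutant library. All other copies of these targets were at 0, as were all copies of 28S-C2645 and the 4 copies of 28S-G1083. A further 5 guides, all in Uhg1, carry a copy letter although the table holds no other guide of their target.

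**Figure D4:**
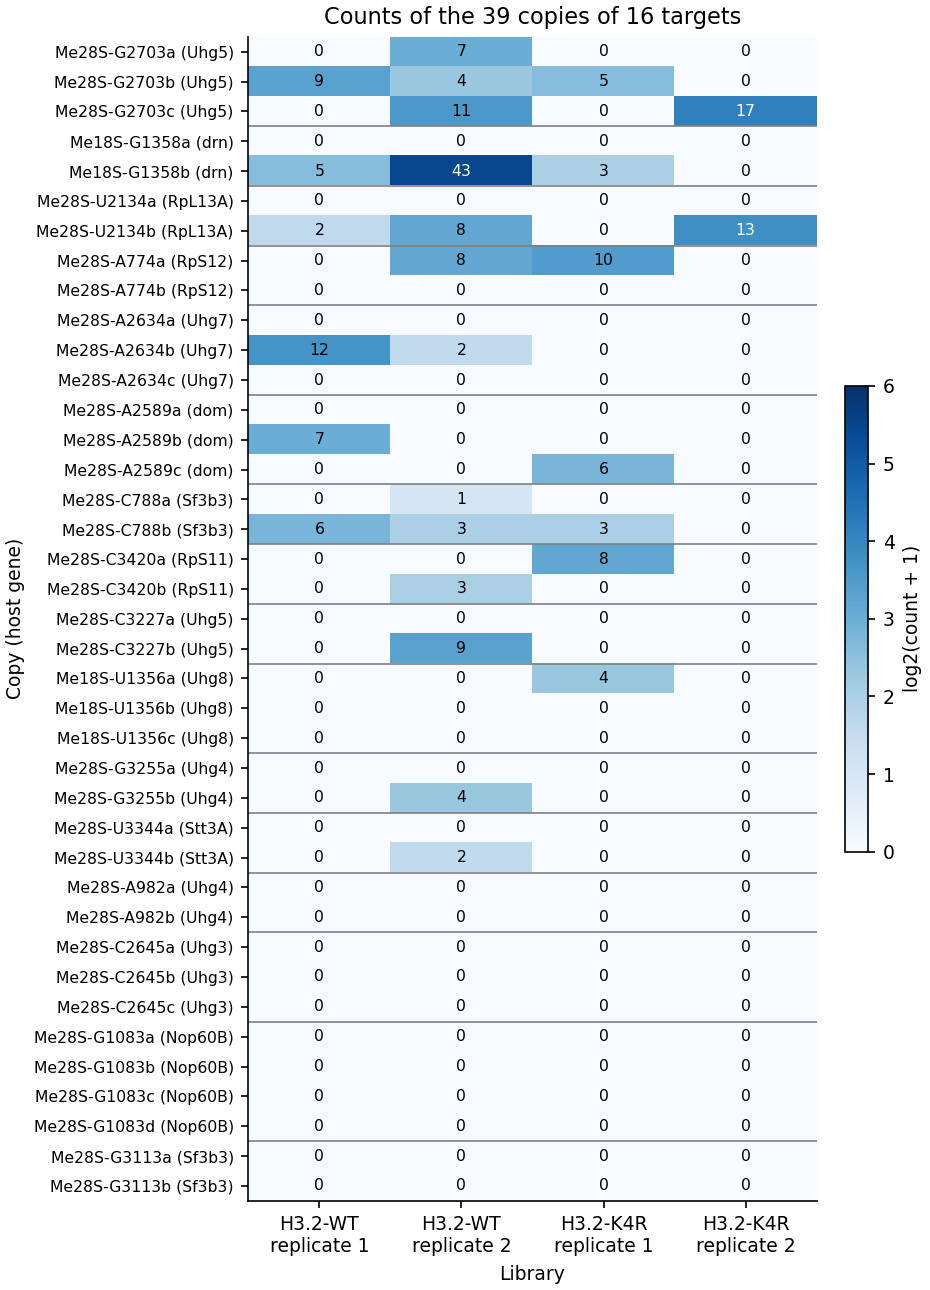
Counts of each of the 39 copies (rows, with the host gene) in each library (columns) for the 16 targets with more than 1 guide; grey lines separate targets, and shading is log2(count + 1). Most cells are 0, the highest cell is 43 counts of Me18S-G1358b, and few copies are counted in both replicates of a group.

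For the host genes with 3 or more guides, host level and guide counts did not follow 1 order. Uhg5 carries 10 guides, of which 6 were counted with 84 counts in all, and its own level was 50.3 and 43.1 CPM in controls and 40.1 and 60.3 in mutants. CG13900, now Sf3b3, a splicing factor gene, carries 6 guides with 30 counts at a host level of 49.3 CPM on average. RpL3 carries 3 guides with 442 counts at 885 CPM. By contrast, dom at 400 CPM carries 4 guides with 13 counts. Nop60B at 189 CPM carries 4 guides with no counts, but all 4 lie over exons, where pairs shared with another gene were left uncounted.

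The remaining hosts of this kind were lower. Uhg1 (5 guides, 31 counts) lay at 9.91 CPM, Uhg3 (3 guides, 0 counts) at 14.4 CPM, Uhg4 (4 guides, 4 counts) at 3.14 CPM, Uhg7 (3 guides, 14 counts) at 1.61 CPM and Uhg8 (3 guides, 4 counts) at 9.82 CPM. All 3 guides of Uhg3 lie over exons, so their 0 counts have the same limit as those in Nop60B. The noncoding gene CR45184 overlaps 5 guides, with 13 counts, and lay at 0.279 CPM. Over host classes, 1 of 31 guides in Uhg or other noncoding hosts was kept, 4 of 17 in ribosomal protein genes, and 14 of 49 in other protein-coding genes. Among listed guides clear of exons the numbers were 1 of 28, 4 of 14 and 2 of 17, so the order of the last pair of classes turned without the unlisted guides.

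The comparison of H3.2-K4R with H3.2-WT gave no guide past the threshold. With edgeR's quasi-likelihood test, 0 of the 19 kept guides were higher and 0 were lower at an adjusted p under 0.05, against 0.588% of the 11562 genes tested (0.415% higher and 0.173% lower). None of the 19 had an unadjusted p under 0.05 (edgeR), against 16.9% of all tested genes. None was called by limma-voom, which called 1.5% of all tested genes. DESeq2, which called 5.75% of all tested genes, gave no adjusted p for 15 of the 19 guides and called none of the others. In the edgeR test, the log2 fold changes of the 19 guides, H3.2-K4R over H3.2-WT, were positive for 8 and negative for 11. Their median was -0.22, beside -0.02 over all tested genes. In CPM the groups did not overlap for 10 of 19 guides (52.6%), of which 4 were higher and 6 lower in both mutants, beside 51% of all tested genes. A share so near that of all genes gives no result about the guides.

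The 10 guides with the lowest p had adjusted p between 0.450 and 0.787 in the edgeR test. Me18S-G962, inside the zinc finger gene klu, had 23 and 45 counts in controls and 10 and 0 in mutants, and its log2 fold change was -2.75 ± 1.65 (SE; adjusted p = 0.450, edgeR). Me18S-A1576, with counts given above, had -2.68 ± 1.61 (adjusted p = 0.452, edgeR). In both guides all mutant values lay below all control values, and each has a library at 0 counts. Me18S-G962 passed the expression filter only through the control libraries, where it is higher, so its place among the tested guides is tied to that direction.

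The 3 most positive estimates belonged to unlisted guides, which make up 12 of the 19 kept. Me18S-C1024 had a log2 fold change of 1.51 ± 0.96 (adjusted p = 0.476, edgeR) and Me18S-G393 one of 2.28 ± 1.58 (adjusted p = 0.516, edgeR). Me28S-U1230, inside aru, had 0 and 13 counts in controls and 16 and 24 in mutants, with a log2 fold change of 1.83 ± 1.76 (adjusted p = 0.658, edgeR).

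The other guides of this group had smaller or less certain estimates. Me28S-G2017 had a log2 fold change of -0.57 ± 0.48 and Me18S-C1831 one of -0.58 ± 0.78. Me28S-A2564 had -1.34 ± 1.63. Me18S-G423, inside the muscarinic receptor gene mAChR-B, had 28 and 2 counts in controls and 13 and 0 in mutants, with -1.45 ± 2.03, and its groups overlapped. The direction of Me18S-G423 rested on 1 library: its log2 fold change was 1.78 without H3.2-WT replicate 1, and it was -7.06 without H3.2-K4R replicate 1. Me28S-C1237 had 0.72 ± 1.06. The p values of these 5 guides did not pass the threshold.

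The precision differed greatly between guides. For Me28S-A1322 the log2 fold change was 0.15 ± 0.23 with a 95% confidence interval from -0.38 to 0.67, and its adjusted p was 0.798 in the edgeR test. Without H3.2-K4R replicate 2 the log2 fold change of Me28S-A1322 was -0.16. It was the only guide whose interval reached less than 1 log2 unit to either side of its estimate. Over the 19 guides the median reach was 3.02 log2 units to either side, so for most of them changes of several fold could not be told from no change. Summing the copies of each target gave 75 features, of which 20 were kept and 0 were called. The added feature was 28S-G2703, at -0.34 ± 1.45.

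**Figure D5:**
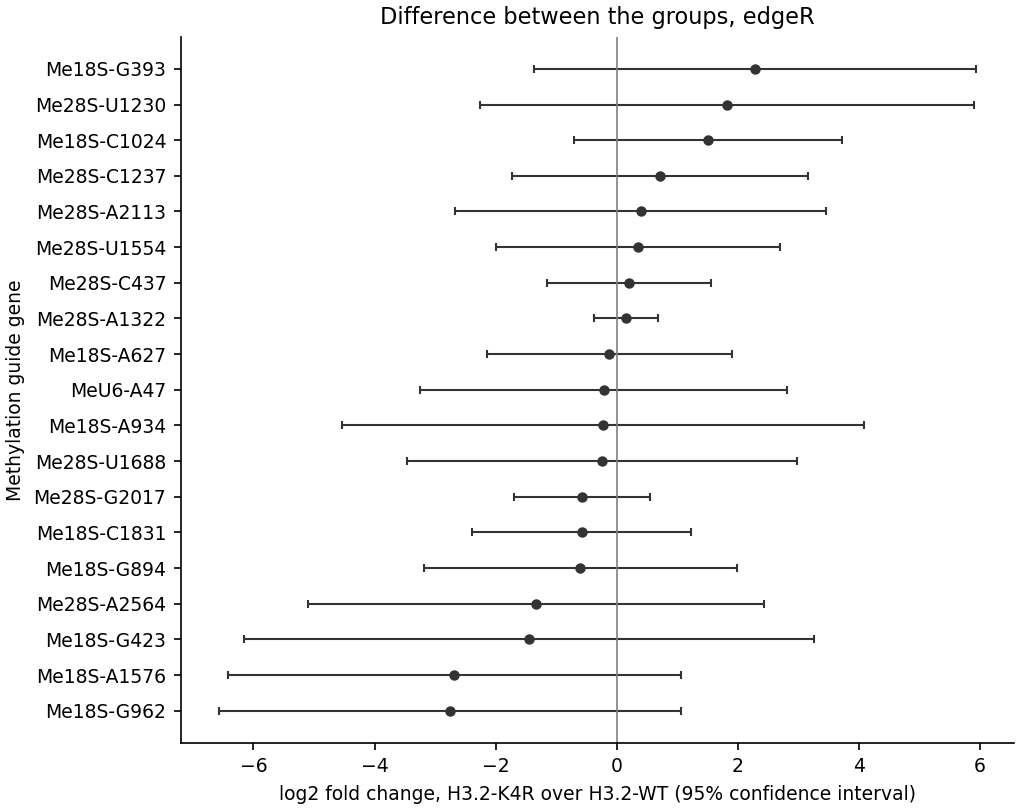
log2 fold change, mutants over controls, for the 19 kept guides (points) with 95% confidence intervals (bars), from edgeR with 2 libraries per group; the vertical line is no change. All 19 intervals include 0, and that of Me28S-A1322, from -0.38 to 0.67, is the narrowest.

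The proteins that bind box C/D guides were measured with far higher counts. Fib lay at 61.9 and 57.3 CPM in controls and at 44.1 and 32.0 CPM in mutants, with a log2 fold change of -0.65 ± 0.19 (adjusted p = 0.186, edgeR). The gene hoip, whose product binds the kink-turn of the guide RNA, lay at 34.4 and 37.9 against 23.3 and 21.5 CPM, with -0.69 ± 0.17 (adjusted p = 0.135, edgeR). The scaffold genes nop5 and Nop56 had -0.28 ± 0.14 and -0.24 ± 0.16. In all 4 genes both mutants lay below both controls, as in 27.5% of all tested genes, and 2 had an unadjusted p under 0.05 (edgeR), as had 16.9% of all tested genes, but 0 of the 4 passed the threshold. Their median was -0.46.

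Other lists of related genes gave no calls either. No gene passed the threshold among 7 assembly and chaperone genes (median -0.17) and 10 genes of 3′ trimming and the exosome (median -0.20). The same held for 4 core genes of the H/ACA particle (median -0.34). It also held for 9 genes listed by symbol under rRNA methylation and ribosome assembly (median -0.12). The roles of single genes of that last list, such as Rrp1 and bel, were not checked. Of 79 tested H/ACA guides, 0 were higher and 1 was lower, beside 0.415% higher and 0.173% lower over all tested genes. Their median log2 fold change was -0.96. Other short RNA classes had medians of -0.99 (13 snRNA genes), -0.79 (6 snoRNA:Or genes), -0.49 (7 scaRNA genes) and 0.08 (1 snoRNA:U gene). Summed H/ACA guide levels were 1636 and 1182 CPM in controls and 1092 and 465 CPM in mutants, lowest in H3.2-K4R replicate 2. The difference between the guide classes was not tested.

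Hosts are given beside their guides as values only. Over the 12 ribosomal protein hosts 0 were called, beside 0.588% of all tested genes. Of these hosts, 11 had a negative log2 fold change, and the median was -0.65. An unadjusted p under 0.05 (edgeR) was found for 11 of the 12, against 16.9% of all tested genes. RpL3 had -0.74 ± 0.22 (adjusted p = 0.186, edgeR) beside -0.57 for its guide Me28S-G2017. The 7 Uhg hosts had 0 calls and a median of -0.36, and the one with the lowest p was Uhg1 at -0.59 ± 0.24 (adjusted p = 0.277, edgeR). Of the 56 hosts tested, CG5953 was the only one past the threshold, beside 0.588% of all tested genes. Its log2 fold change was 1.09 ± 0.16 (adjusted p = 0.0362, edgeR). Its guide Me28S-C1237 had 0.72 ± 1.06 and did not pass. The host of Me28S-A1322, Ef1alpha48D, had -0.10 ± 0.15.

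Libraries differed in how many guides they detected. At least 1 count was found for 34 and 48 guides in controls and for 39 and 20 in mutants, whereas 10 counts or more were found for 21 and 22 guides against 18 and 19. In H3.2-K4R replicate 2 nearly all guides were thus either at 0 or at 10 counts or more, though some, such as Me18S-A1576 at 13, were only just above. Only 1 of its 20 detected guides had a count from 1 to 9, against 13 and 26 in controls and 21 in H3.2-K4R replicate 1. Of 14 guides counted in exactly 3 libraries, 10 were missing in H3.2-K4R replicate 2, among them Me28S-A2564, Me18S-G962 and Me18S-G423. Of 17 guides counted in a single library, 8 were seen in H3.2-WT replicate 2, the deepest library, 5 in H3.2-K4R replicate 1, 3 in H3.2-WT replicate 1 and 1 in H3.2-K4R replicate 2, at no more than 15 counts.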

How the data were processed

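Total RNA was sequenced from 2 H3.2-WT and 2 H3.2-K4R libraries of whole embryos. Per the file headers, the authors counted read pairs per gene with featureCounts 2.0.6, as fragments, on 1 strand and over exons, without the options for multi-mapping reads or reads over several genes, so guides near-identical to another locus, or over another gene's exon, lose counts. Build dm6, the aligner STAR 2.7.7a and the packages SAMtools 1.9 and Subread 2.0.6 come from the submitters' processing notes. The count table was used as deposited, and its wild-type columns, named HWT, were taken as H3.2-WT.

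From these counts, genes with low values were removed with filterByExpr (minimum count 10, minimum total 15), and H3.2-K4R was tested against H3.2-WT with edgeR 4.0.16 in R 4.3.3 (TMM, quasi-likelihood test, no block, Benjamini-Hochberg over 11562 genes, threshold 0.05). DESeq2 1.42.0 and limma 3.58.1 (voom), other scaling, other filters, a length correction, summed copies, a replicate block and leaving out each library were the alternatives. The edgeR test was first tested on simulated data. There, changes were put into genes drawn from all kept genes, so it does not show how the test does at the low counts of most guides. With 2 against 2 libraries, an exact permutation test of a single value cannot reach a p under 0.05. Depth per library was 33882742, 45509930, 42661669 and 37055590 counted pairs. Lengths, spans and hosts are those of the table, in dm6; snoRNA entries were taken from the Ensembl annotation and from RefSeq on assembly Release 6, and 72 guides had an entry in both. Strand was used in counting, so antisense neighbours are counted apart.

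Guides were named with values if they passed the threshold, were among the 10 lowest p or the 12 highest CPM per kilobase, were copies of a target with 3 or more copies or of the targets with 2 copies among the 6 highest summed counts, or lay in hosts with 3 or more guides (described as hosts). Box C/D core genes were also named. Others were chosen after their values were seen. The guides and all lists were chosen with earlier results of these data known. No guide sequences are shown. The host genes of some guides are not reported here.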

Additional observations from a re-analysis of the deposited data

How the results depend on the processing

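The number of guides called was 0 under all 13 alternatives, with DESeq2 giving no adjusted p for 15 of 19 guides. The median log2 fold change of the kept guides was -0.22, and it was 0.11 with limma-voom, -0.76 over 60 guides with no filter beyond 1 count, -0.11 over the 9 guides with 10 counts in every library, and -0.38 to 0.031 when each library was left out; the cause was not tested. The number of guides with an unadjusted p under 0.05 was 0, and 0 to 2 when each library was left out, with 2 without H3.2-K4R replicate 1; there the lone library of a group is assumed to vary like the others. The replicate numbers gave only 2 pairs, whose deviations correlated with r = 0.106, so they were not taken to pair the samples; with the replicate block the median was 0.0032 and 0 guides were called, while over all genes 608 were higher and 758 lower, against 48 and 20 without it. Over all genes, DESeq2 called 358 higher and 307 lower, limma-voom 101 and 72, the fit with no filter 452 and 527, and that with 10 counts in every library 84 and 33. Without H3.2-K4R replicate 1 the calls over all genes were 244 higher and 566 lower, without H3.2-K4R replicate 2 they were 104 and 31, without H3.2-WT replicate 1 they were 2 and 0, and without H3.2-WT replicate 2 they were 0 and 0. Detection was 33 guides at 10 counts in any library, 60 at 1 count, 8 at 50 counts and, chosen after seeing the data, 18 among guides with an Ensembl entry alone and 27 to 32 with each library left out. The summed level was 39.8 CPM with or without TMM, and 18.0 without Me28S-A1322, also added after seeing the data. Of 237 estimates of single guides under the alternatives, 16 changed sign, in 9 guides, and 0 were called. Counts under about 10 limit most guides: a 0 does not show that a guide is absent.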

Other observations

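The pattern of small counts in H3.2-K4R replicate 2 was also seen over the table. Among all genes with at least 1 count, 403 had 1 to 9 counts in that library, against 795 and 1348 in the H3.2-WT libraries and 1136 in H3.2-K4R replicate 1. Among the methylation guides its smallest count above 0 was 6 and its median count above 0 was 29.5, against medians of 12 and 8.5 in the H3.2-WT libraries and 9 in H3.2-K4R replicate 1. Among the H/ACA guides the number of small counts was also lowest in H3.2-K4R replicate 2, but not their share. In that library 10 of 66 detected H/ACA guides had 1 to 9 counts. The others had 17 of 88 and 16 of 98 in controls and 12 of 87 in H3.2-K4R replicate 1. The share was 15.2% in H3.2-K4R replicate 2, 19.3% and 16.3% in controls and 13.8% in H3.2-K4R replicate 1. Over all genes the share was 3.47% in H3.2-K4R replicate 2, 6.60% and 10.5% in controls and 8.84% in H3.2-K4R replicate 1. What lies behind this was not tested.

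Guides were kept unevenly over the chromosome arms. The filter kept 5 of 9 guides on X, 7 of 17 on 2L and 4 of 13 on 3R, but 2 of 35 on 2R and 1 of 24 on 3L. Arm overlaps with host class and with whether a guide is listed, and their parts were not separated. On 2L, the kept guides Me28S-U1230, Me28S-C437, Me18S-A934 and Me28S-C1237 are unlisted, and the other kept guides are listed.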
